A study of Homo sapiens with 5 samples.

Results

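The regions described here are H3K9me3 peaks of EV cells that were also found in a further peak list whose name carries no genotype, and that had no peak in KCNQ1OT1 knockdown (KD) cells. H3K9me3, trimethylation of histone H3 at lysine 9, was mapped in HEK293T, a cell line from human embryonic kidney, by ChIP-seq (chromatin immunoprecipitation followed by sequencing). The labels name H3K9me3 libraries from KD, EV and WT cells and input libraries from EV and WT cells, 1 library of each, and all of them are HEK293T. KD is the knockdown of KCNQ1OT1, written with the suffix K in the study design, and EV is taken as the empty-vector control. The sources used here do not say how the knockdown was made or whether each line was a clone or a pool. No RNA level of KCNQ1OT1 was analysed here, so the knockdown was not checked.

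Members were chosen by overlap alone. An EV peak on chromosomes 1 to 22 was kept if at least 1 bp of it lay under a peak of the list without a genotype, called the unlabelled list below, and if no KD peak overlapped it. This gave 1599 of the 23245 EV peaks on these chromosomes, or 6.88%, and of 26364 EV peaks on all sequences. The unlabelled list was assigned to no sample, so it is not known to be a control, and it shared fewer EV peaks than KD did. KD had 12081 peaks on chromosomes 1 to 22, against 23245 in EV and 13242 in the unlabelled list. Overlap with KD and with the unlabelled list is what chose the members, so the counts, widths and strengths of the members describe them and were not tested.

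H3K9me3 marks constitutive heterochromatin, the compact chromatin of centromeres and other satellite repeats, and silenced genes and transposable elements. It is written by methyltransferases such as SUV39H1 and SETDB1 and read by HP1 proteins. KRAB zinc finger proteins bring SETDB1 to transposable elements through the corepressor TRIM28, and the zinc finger (ZNF) genes that encode them often carry the mark themselves. KCNQ1OT1 is a long non-coding RNA of the imprinted KCNQ1 domain on chromosome 11 that takes part in silencing of its neighbours.

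Fold enrichment in what follows is the authors' ratio over the caller's background, and −log10 p is their peak caller's value. Of 33725 RefSeq promoter windows, which run from 250 bases before to 50 after a gene's start, members overlapped 24, or 0.0712%. EV peaks shared with KD and absent from the unlabelled list, the mirror class below, overlapped 220 (0.652%). Peaks in all 3 lists overlapped 82 (0.243%) and peaks in EV alone 237 (0.703%). These classes hold 1599, 4515, 4305 and 12826 peaks in this order, so the low count under members is not read as a result. Of the 24 windows under members, 20 belong to lncRNA genes and 4 to protein-coding genes, FBLN7, TAFA5, ZNF454 and TMEM132C. FBLN7 encodes an extracellular matrix protein of the fibulin family, TAFA5 a secreted brain protein and ZNF454 a zinc finger protein. The promoter sequences of the 4 (RefSeq, GRCh38.p14, gene strand) are shown because they are the protein-coding starts that a member peak overlapped. The unlabelled peak met each of these members, but not necessarily at the start itself. Capitals mark CG dinucleotides, the sites of DNA methylation.
FBLN7: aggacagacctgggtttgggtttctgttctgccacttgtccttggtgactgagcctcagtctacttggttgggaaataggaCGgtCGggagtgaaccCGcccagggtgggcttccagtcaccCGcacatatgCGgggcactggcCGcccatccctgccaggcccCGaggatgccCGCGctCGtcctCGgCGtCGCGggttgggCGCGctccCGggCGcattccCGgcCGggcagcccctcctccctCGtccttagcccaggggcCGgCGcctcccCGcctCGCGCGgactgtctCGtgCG
TAFA5: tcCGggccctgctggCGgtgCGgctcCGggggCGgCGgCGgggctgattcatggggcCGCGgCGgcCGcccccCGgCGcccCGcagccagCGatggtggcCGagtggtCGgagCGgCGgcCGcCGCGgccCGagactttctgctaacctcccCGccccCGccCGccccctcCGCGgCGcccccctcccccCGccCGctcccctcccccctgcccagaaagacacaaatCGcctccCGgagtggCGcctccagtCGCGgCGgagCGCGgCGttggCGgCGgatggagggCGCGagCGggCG
ZNF454: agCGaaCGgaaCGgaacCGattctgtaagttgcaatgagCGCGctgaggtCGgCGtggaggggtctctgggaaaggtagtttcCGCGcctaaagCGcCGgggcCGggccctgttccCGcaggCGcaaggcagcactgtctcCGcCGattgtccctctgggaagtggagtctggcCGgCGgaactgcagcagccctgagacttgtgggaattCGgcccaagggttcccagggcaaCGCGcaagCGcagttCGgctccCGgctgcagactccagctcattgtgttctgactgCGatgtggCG
TMEM132C: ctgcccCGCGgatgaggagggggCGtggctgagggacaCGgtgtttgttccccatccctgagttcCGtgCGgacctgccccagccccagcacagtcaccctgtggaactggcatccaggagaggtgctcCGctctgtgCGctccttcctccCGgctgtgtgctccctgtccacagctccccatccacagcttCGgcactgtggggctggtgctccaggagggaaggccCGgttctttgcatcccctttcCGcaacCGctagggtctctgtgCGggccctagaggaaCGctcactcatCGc

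These windows held between 16 and 46 CG dinucleotides, with 46 in TAFA5, 29 in FBLN7, 27 in ZNF454 and 16 in TMEM132C. The median over all 21156 protein-coding windows was 21. The windows of TAFA5 (chromosome 22, positions 48576090 to 48576389, plus strand), ZNF454 (chromosome 5, 178940948 to 178941247, plus strand) and TMEM132C (chromosome 12, 128267742 to 128268041, plus strand) lay in full under a member peak, the TAFA5 window at a start inside the gene. At FBLN7 (chromosome 2, 112138135 to 112138434, plus strand) the member covered 104 of the 300 bases and ran into the gene. The FBLN7 member was the strongest of the 4, at 3.74-fold enrichment and −log10 p 11.8 in EV, against 2.91-fold and 3.69 for the unlabelled peak. Here and below each such value is that of its own list, and no difference is read between lists. Its nearest KD peak was 69.4 kb away. FBLN7 had no KD peak in its body, whereas ZNF454 had 3, TMEM132C 2 and TAFA5 7, all elsewhere in the gene. The member at ZNF454 also covered the start of ZNF454-DT, the lncRNA transcribed the other way from the same place. The motif TGCCGC, bound by the imprinting factor ZFP57 when methylated, was searched on both strands (TGCCGC or GCGGCA). It was in 3 of the 24 windows (12.5%, exact Clopper-Pearson 95% interval 2.66 to 32.4) and in none of the 4 protein-coding ones (interval up to 60.2%), against 29.1% of mirror windows and 16.7% of all windows. Among lncRNA windows alone the share was 15% under members (3 of 20, interval 3.21 to 37.9), against 10.1% of all lncRNA windows.

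The members were outnumbered by their mirror image. EV peaks that KD shared and the unlabelled list lacked numbered 4515, or 19.4% of EV peaks. A further 4305 were in all 3 lists and 12826 in EV alone. KD overlapped 37.9% of the EV peaks (interval 37.3 to 38.6) and the unlabelled list 25.4% (24.8 to 26.0), so the larger part of the EV list, 62.1%, had no KD peak. Of the 6114 EV peaks found in only one of the other lists, 26.2% (25.1 to 27.3) were members. Members covered 3.21 Mb, or 6.58% of the EV covered length, and the mirror class covered 6.71 Mb. Intervals here and below are exact Clopper-Pearson 95% intervals and cover counting error over peaks or genes only, since each condition had 1 library.

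Members were mostly weak peaks of the EV list. Median −log10 p in EV was 4.21 for members (quartiles 3.64 and 5.13), against 7.10 for the mirror class, 8.43 for peaks in all 3 lists and 3.93 for peaks in EV alone. Median fold enrichment was 3.09, against 3.46, 3.73 and 2.98 in the same order. Members were 1468 bp wide at the median, against 1224 bp in the mirror class, 3573 bp for peaks in all 3 lists and 834 bp in EV alone. Only 436 members had a −log10 p of at least 5 in EV and 34 of at least 10. For the 1651 unlabelled peaks that met a member, the median −log10 p was 4.28 and the median fold 3.39, beside 4.26 and 3.37 over their whole list. Both lists reached a −log10 p of 5 at 162 members (10.1%), 135 of them in gene-free stretches.

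The borders of the rule were close for some members. The unlabelled peaks covered 55.0% of a member at the median. At the narrowest, 2 members shared 2 bp with the unlabelled list, on chromosome 17 (25059412 to 25061059) and chromosome 5 (49385579 to 49385947). The member nearest to KD, on chromosome 11 (52091351 to 52094491), lay 2 bp from a KD peak, and 35 members (2.19%) lay within 1 kb of one. Just outside the rule, an EV peak on chromosome 9 (45070134 to 45073084) was lost by 14 bp of KD overlap, and one on chromosome 11 (52886777 to 52888524) lay 1 bp from an unlabelled peak. Of the unlabelled peaks at members, 138 (8.36%) were overlapped by a KD peak at some other base, and 147 members met such a peak. KD peaks lay within 10 kb of 934 members (58.4%, interval 55.95 to 60.8) and over 100 kb from 175. The median distance to KD was 4302.5 bp for members in gene-free stretches, defined below, and 30818 bp for the rest, against 102214 bp for peaks in EV alone.

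**Figure D1:**
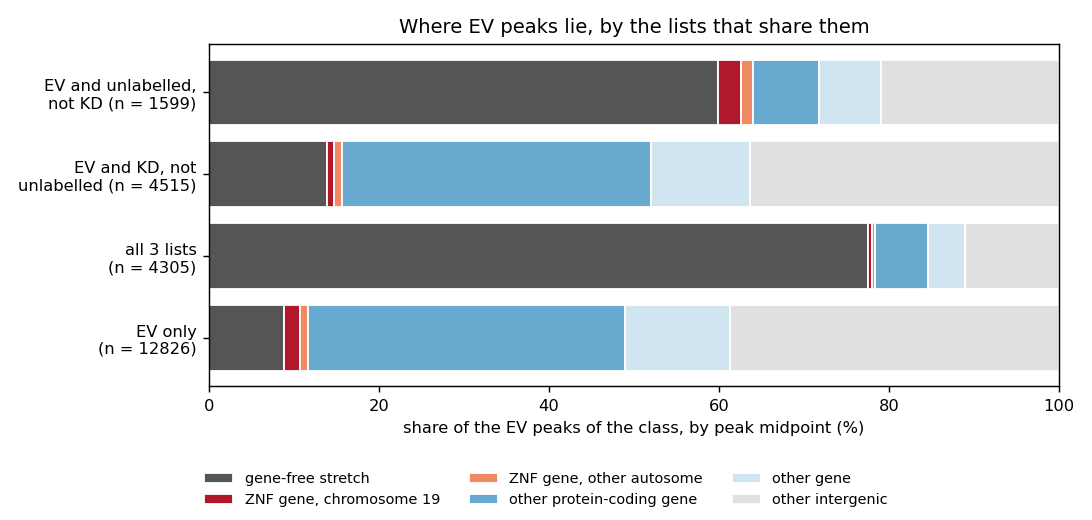
Location of EV peaks by midpoint, as a share of each class in percent, for the 4 classes given by overlap with KD and the unlabelled list. Gene-free stretches hold 59.9% of the members in the top bar and 13.9% of the mirror class below it, and ZNF genes on chromosome 19 hold 2.63% and 0.842%.

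By the 1 bp rule, most members lay in large gene-free stretches, a class that takes in many centromeres. Their share was 30.1% among members with no KD peak within 10 kb and 43.5% with peaks within 3 kb merged. Stretches of at least 2 Mb without an annotated gene, 26 in number and 168.7 Mb in all, held 958 members (59.9%, interval 57.5 to 62.3), against 13.9% of the mirror class, 77.5% of peaks in all 3 lists and 8.80% of EV-only peaks. The lists themselves differed in this: 48.1% of KD peaks lay there, against 26.0% of EV peaks and 51.6% of unlabelled peaks. Genes of any kind held 306 members (19.1%) and protein-coding genes 190 (11.9%), against 49.7% and 38.1% of the mirror class. Outside the gene-free stretches, 29.6% of the 641 remaining members lay in protein-coding genes (interval 26.1 to 33.3), against 44.3% of the mirror class. Alignment filters are not given and satellite reads can match many places, so values in these stretches are uncertain.

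The share of EV peaks that were members varied with strength and location. In gene-free stretches at a −log10 p of 4 to 5, KD held 40.8% of EV peaks and the unlabelled list 58.3%, and 29.0% were members. At 10 to 15 these shares were 97.3%, 86.7% and 1.36%. Elsewhere the KD share was 4.39% below 3.5, 75.2% at 10 to 15 and 100% (interval from 99.3%) at 30 or more. The unlabelled share outside the stretches stayed between 8.65% and 10.5% in every bin from 4 to 15, and reached 18.5% at 15 to 30 and 51.5% above. Members made up 5.49% of EV peaks at 4 to 5 there, 1.18% at 10 to 15 and none of 497 at 30 or more. The depth of the lists is unknown, and its part in these shares was not tested.

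**Figure D2:**
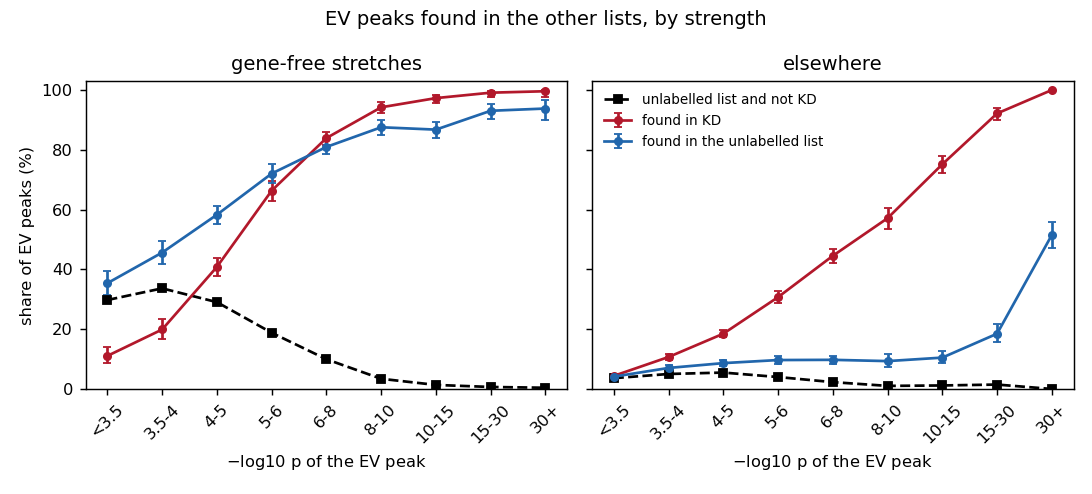
Share of EV peaks in percent found in KD, found in the unlabelled list, or in the unlabelled list and not KD (the members), by −log10 p of the EV peak, in gene-free stretches (left) and elsewhere (right). Bars on the KD and unlabelled points are exact 95% intervals over peaks. On the right, at 10 to 15 the KD share is 75.2% and the unlabelled share 10.5%, and at 30 or more they are 100% and 51.5%.

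Among the gene-free stretches the share of EV peaks that were members varied by chromosome. It was 32.6% on chromosome 17 (84 of 258), 32.4% on chromosome 4 (94 of 290), 31.9% on chromosome 6 (67 of 210) and 30.04% on chromosome 11 (134 of 446). It was 2.44% on chromosome 16 (2 of 82), 3.13% on chromosome 20 (6 of 192) and 5.77% on chromosome 8 (9 of 156). On chromosome 17, KD overlapped 34.9% of these EV peaks and the unlabelled list 62.4%. On chromosome 16 the shares were 82.9% and 80.5%. Peaks of one stretch are not independent of each other, and the spread between chromosomes was not tested.

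**Figure D3:**
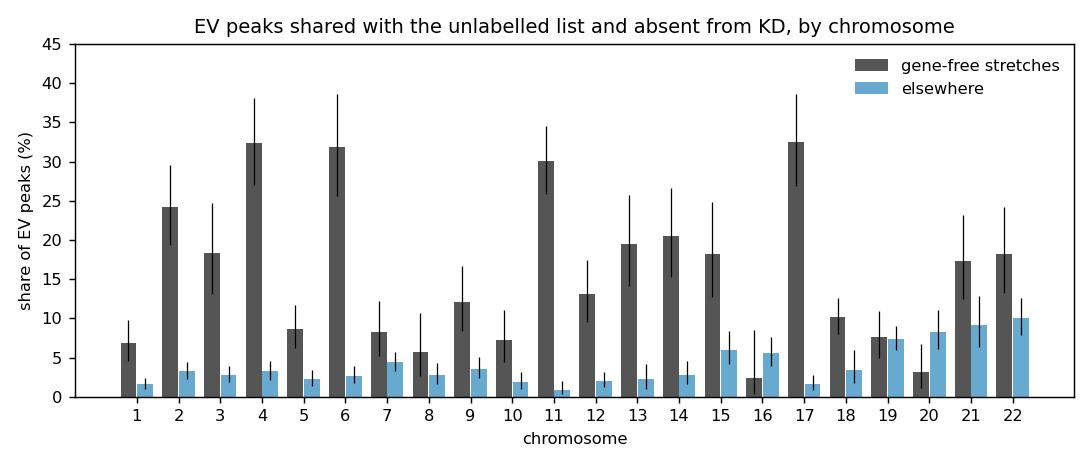
Share of EV peaks in percent that were shared with the unlabelled list and absent from KD, for each chromosome, in gene-free stretches (dark) and elsewhere (light). Bars through the columns are exact 95% intervals over peaks. Chromosomes 4, 6, 11 and 17 reach 30.04% or more in gene-free stretches, and chromosome 16 stands at 2.44%.

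Members were mostly isolated. Of the runs of consecutive EV peaks that were all members, 1078 held a single peak, 164 held 2, 41 held 3, 12 held 4, 2 held 5 and 2 held 6. The longest outside the gene-free stretches was in TAFA5 (chromosome 22, 48616728 to 48655233), with 6 peaks over 38.5 kb. Its match among the stretches, also 6 peaks, spanned 39.6 kb of chromosome 13 (17548093 to 17587716). The widest member covered 16009 bp of chromosome 2 (92421772 to 92437780), where 3 unlabelled peaks met it and the nearest KD peak was 6.33 kb away. The highest fold enrichment was 6.50, on chromosome 9 (44767884 to 44771365), with 5.10 in the unlabelled list and a KD peak 1.06 kb away.

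Zinc finger genes made up a large part of the protein-coding genes under members. Members overlapped 159 of 19126 protein-coding genes, or 0.831%, and 57 of the 159 (35.8%, interval 28.4 to 43.8) were ZNF genes. Among the 1551 genes (8.11%) overlapped by the mirror class, 67 were (4.32%, interval 3.36 to 5.45), and among all protein-coding genes 2.60%. These intervals take genes as independent, but overlapping genes can share a member, as ZNF69 and ZNF700 did. The ZNF share was 11.9% of the 278 genes with a peak in all 3 lists and 5.79% of the 3590 with an EV-only peak. The lists themselves differed in this. The unlabelled list overlapped 50.8% of all chromosome 19 ZNF genes and KD 25.2%, against 7.18% and 11.3% of all protein-coding genes. The ZNF share under members was 19.05% of 21 genes, with 4 ZNF genes on chromosome 19 and 0 elsewhere, at a −log10 q of at least 2 in EV and the unlabelled list with all KD peaks kept. It was 55.0% of the 20 genes with at least 10% of the body under members. On chromosome 19, where most of the KRAB zinc finger genes are clustered, 39 of 246 ZNF genes carried a member (15.9%) and 37 a mirror peak. On the other autosomes 18 of 251 (7.17%) carried a member and 30 a mirror peak. The ZNF list was chosen with earlier results of these data known. Its genes were taken by symbol and not by a KRAB domain, so these shares are not shares of KRAB zinc finger genes. ZFP90, with 2 members, was counted outside the list.

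Of the EV peaks with their midpoint in a chromosome 19 ZNF gene, 17.2% were found in KD (interval 13.3 to 21.6) and 18.3% in the unlabelled list (14.4 to 22.9). In protein-coding genes other than ZNF genes these shares were 28.0% (27.0 to 29.1) and 5.76% (5.22 to 6.34). At like strength, a −log10 p from 4 to below 6, they were 14.04% and 18.4% in chromosome 19 ZNF genes, against 22.6% and 5.03% in the other protein-coding genes. Members were thus 12.4% of the EV peaks in chromosome 19 ZNF genes (42 of 338), 10.9% in ZNF genes elsewhere (23 of 211) and 1.83% in other protein-coding genes (125 of 6823).

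Members covered at least 10% of the body in 20 genes (0.105% of protein-coding genes), 11 of them ZNF genes. ZNF878 on chromosome 19 had the largest covered share of the genes of at least 5 kb. Its body (12043602 to 12052961) had no KD peak, against 37.2% covered in EV and 16.6% in the unlabelled list. The single EV peak there, a member of 3482 bp, was 3.20-fold enriched, with a −log10 p of 6.25, and lay 8.08 kb from a KD peak. The same order, with no KD peak, held at ZNF555 (14.96% in EV and 6.17% unlabelled), ZNF382 (16.6% and 2.84%) and ZNF845 (30.3% and 1.80%), all on chromosome 19. ZNF416 also had no KD peak, but its unlabelled share, 39.5%, exceeded its EV share of 18.2%.

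Most of the other named ZNF genes had a KD peak beside the members. ZNF544, on chromosome 19 (58228914 to 58277455), had 1 KD peak, 8 EV peaks and 5 unlabelled peaks, over 0.509%, 31.4% and 18.3% of its body. Its 4 members were 888 to 5727 bp wide, and the nearest KD peak to any of them was 17.2 kb away. ZNF121 had 1.39% in KD, 30.6% in EV and 13.3% in the unlabelled list. ZNF268, on chromosome 12, had 1.698%, 41.1% and 16.3%. ZNF354B, on chromosome 5, had 5.84%, 36.1% and 15.3%, and ZNF605, on chromosome 12, had 10.1%, 48.5% and 5.42%. ZNF274, which brings SETDB1 to the ends of other ZNF genes, had 7.44%, 40.9% and 7.06%, with 1 member of 2003 bp 2.45 kb from a KD peak. ZNF26, on chromosome 12, carried 2 members and no KD peak, with 10.8% in EV and 22.04% in the unlabelled list.

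Over the 57 ZNF genes with a member, peaks covered 2.14% of the summed gene bodies in KD, 15.2% in EV and 8.46% in the unlabelled list. In 29 of the 57 the body had no KD peak, as in 84 of the 159 genes with a member (0.439% of protein-coding genes). Such bodies are common. KD peaks lay in only 25.2% of all chromosome 19 ZNF genes, 18.3% of the other ZNF genes and 11.3% of all protein-coding genes. The values of the genes with a member follow in part from the rule, which asked for EV peaks without KD. Over the 67 ZNF genes with a mirror peak, which was chosen the opposite way, the shares were 2.10%, 7.49% and 2.09%. Position along the gene was taken at the peak midpoint, from the gene's start at 0 to its end at 100%. A peak in overlapping genes was counted for each gene, so the counts are pairs of gene and peak. Members in chromosome 19 ZNF genes had a median of 60.4% (40 pairs, quartiles 40.1 and 83.1). The median was 40.7% for mirror peaks (36 pairs, quartiles 17.6 and 67.6), 59.8% for peaks in all 3 lists and 53.4% for EV-only peaks. On the other autosomes the order of members and mirror peaks was turned, with 39.5% for 23 member pairs and 54.7% for 34 mirror pairs. Strand was known for 421 of the 497 ZNF genes.

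**Figure D4:**
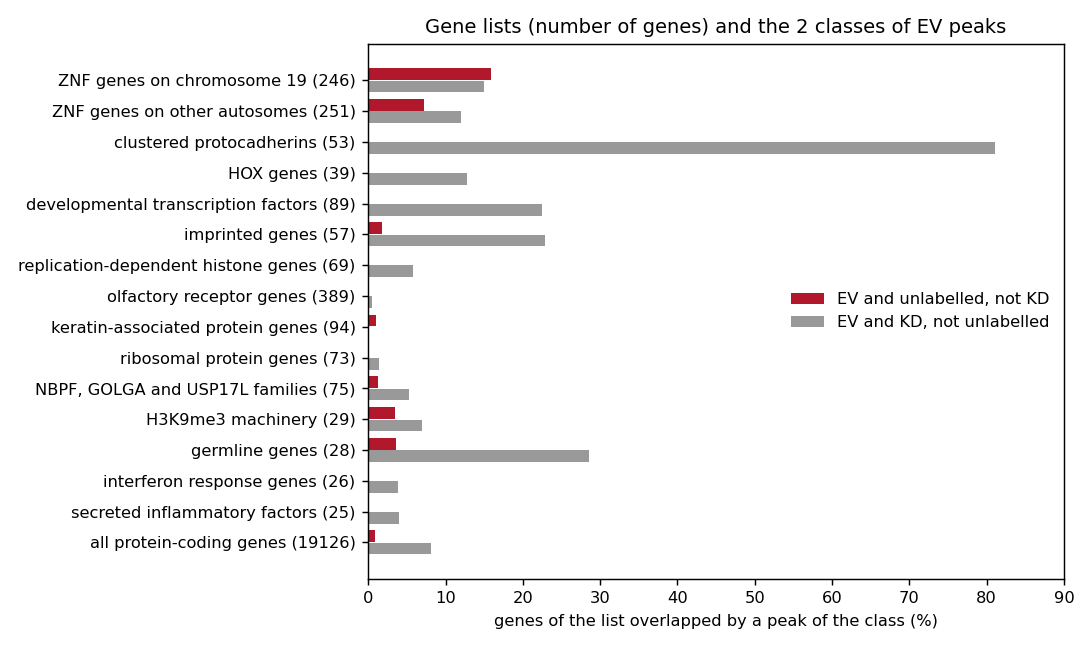
Share of the genes of each list, in percent, overlapped by an EV peak shared with the unlabelled list and absent from KD (upper bar) or by an EV peak shared with KD and absent from the unlabelled list (lower bar). Clustered protocadherins stand at 0% and 81.1%, and chromosome 19 ZNF genes at 15.9% and 15.04%.

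The lists of developmental genes held no members, at a share of 0.831% over all protein-coding genes. Counts of 0 in lists of this size are near that share and are no result about the lists. Of 53 clustered protocadherin genes, which encode neuronal adhesion proteins and share peaks with each other, 0 carried a member (interval up to 6.72%) and 43 a mirror peak. Among 39 HOX genes, which pattern the body axis, 0 carried a member and 5 a mirror peak. Among 89 developmental transcription factor genes of families such as PAX, SOX and FOX, 0 carried a member (interval up to 4.06%) and 20 a mirror peak. In that list 35 genes had a KD peak, 35 an EV peak and 7 an unlabelled peak, which the rule requires. Some developmental transcription factor genes outside the list did carry a member, and 3 of them are named here after their values were seen. LHX8, a LIM homeobox gene on chromosome 1, had no KD peak, 1.49% of its body under an EV peak and 1.21% in the unlabelled list. FOXD4L3, a forkhead gene on chromosome 9 with close paralogs that can share reads, had no KD peak, 40.8% in EV and 24.2% in the unlabelled list. FEZF2, a forebrain transcription factor gene on chromosome 3, had no KD peak and 83.9% of its body under 1 EV peak, with 15.04% in the unlabelled list.

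The remaining lists had at most 1 member gene each, which for lists of their size is also near the 0.831% of all protein-coding genes and is given as a description. Of 57 imprinted genes 1 carried a member, DLGAP2, which encodes a postsynaptic scaffold protein, and 13 a mirror peak. In the KCNQ1 domain (chromosome 11, 2302013 to 3165310) none of the 3 EV peaks was a member, and there were 4 KD peaks and 2 unlabelled ones. Genes of the H3K9me3 machinery had 1 of 29 (ZNF274), germline genes 1 of 28 (STK31, a testis kinase, with a member of 376 bp), and keratin-associated protein genes 1 of 94 (KRTAP19-2). The NBPF, GOLGA and USP17L families had 1 of 75, USP17L17, covered to 100% in EV, with no KD peak and 22.8% in the unlabelled list. The copies of this deubiquitinase gene are near-identical and share reads, so its value is uncertain. Histone, olfactory receptor, ribosomal protein, interferon response, secreted inflammatory factor, senescence and cell cycle, housekeeping and retrovirus envelope genes had none.

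The densest group of members outside the gene-free stretches was at TAFA5, on the long arm of chromosome 22. Over the gene body (48489553 to 48751932) there were 7 KD peaks, 44 EV peaks and 34 unlabelled peaks, covering 2.41%, 55.5% and 21.96%, and 18 of the EV peaks were members. With 100 kb on either side there were 10 KD, 64 EV and 51 unlabelled peaks, and 27 members over 119316 bp. The members in the gene were between 937 and 8926 bp wide, and their −log10 p in EV ran from 3.53 to 7.11. MIR4535, a microRNA gene downstream of TAFA5, lay in full under a member of 5868 bp (48777575 to 48783442) with a fold enrichment of 3.58, and its nearest KD peak was 23.3 kb away. MIR1299, on chromosome 9, was the other microRNA gene under a member, of 2761 bp (40926545 to 40929305) with a fold of 2.78, and a KD peak lay 4.26 kb away. They were 2 of 1793 microRNA genes (0.112%), below the 0.831% of protein-coding genes. The unlabelled list covered the MIR4535 gene in full and the MIR1299 gene not at all. Their mature sequences (RefSeq, GRCh38.p14) are shown to identify them, with the seed, bases 2 to 8, in capitals, and the seeds differ.
hsa-miR-4535: gUGGACCUggcugggac
hsa-miR-1299: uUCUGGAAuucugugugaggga

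**Figure D5:**
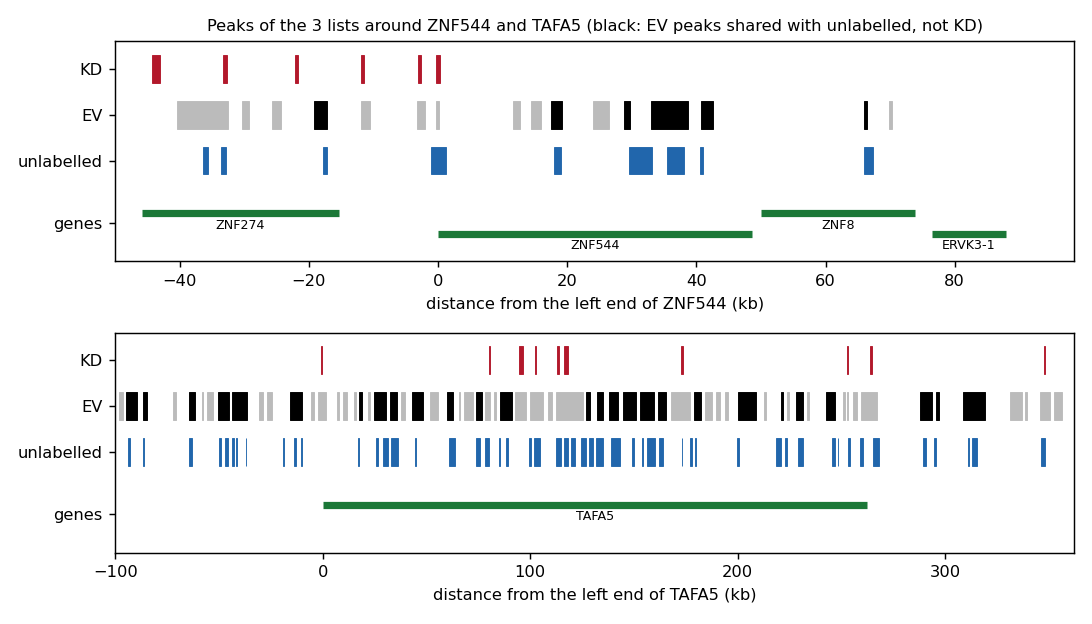
Peaks of the KD, EV and unlabelled lists around ZNF544 (top) and TAFA5 (bottom), against the distance in kb from the left end of the gene, with protein-coding genes that have over 5 kb in view drawn below. Black blocks are EV peaks shared with the unlabelled list and absent from KD. The TAFA5 body holds 7 KD, 44 EV and 34 unlabelled peaks.

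The strongest members by −log10 p were narrow and of low fold. The 14 members with a −log10 p of at least 15 in EV were 383 to 1129 bp wide, with a median fold enrichment of 2.48. The 1847 other EV peaks of this strength had a median fold of 5.31 and a median width of 1737 bp. In the unlabelled list the same places had a −log10 p below 7 in 12 of the 14. The strongest, 43.6, was in the gene-free stretch of chromosome 1 (125162196 to 125162578), with 3.67 in the unlabelled list and a KD peak 3.72 kb away. The 6 strongest included a member in CSMD3 (chromosome 8, 113304607 to 113305104, −log10 p 21.8 in EV and 5.29 unlabelled). Next in rank was a member in RNGTT, which encodes the mRNA capping enzyme (chromosome 6, 88947407 to 88947827, 18.7 and 5.51). After it came a member in GALK2, which encodes an N-acetylgalactosamine kinase (chromosome 15, 49259240 to 49260368, 18.2 and 4.39). None of these genes had a KD peak.

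One member was strong in both lists outside the gene-free stretches. It lay on chromosome 19 at 56744922 to 56745749, within the lncRNA gene LOC105372472 and 28.8 kb from ZIM2, a gene of the imprinted PEG3 domain. The nearest KD peak was 74.0 kb away. Its −log10 p was 15.9 in EV and 16.0 in the unlabelled list, with folds of 2.99 and 5.55. It ranked first by the smaller of the 2 values of −log10 p, a ranking chosen after the values were seen, and the next 7 all lay in gene-free stretches. Only 3 members reached 10 in both lists.

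Several small RNA genes with many near-identical copies lay under members. In the SNORD116 and SNORD115 clusters of the Prader-Willi locus (chromosome 15, 25051476 to 25269858), which hold C/D box small nucleolar RNA genes, there was 1 KD peak, 16 EV peaks and 17 unlabelled peaks. Of the EV peaks 7 were members, 1953 to 8678 bp wide with a −log10 p of 3.24 to 5.74, and they covered 9 SNORD115 and 2 SNORD116 genes out of 78. Among these genes the unlabelled list covered only SNORD115-1, SNORD115-42 and SNORD115-43. At the others the unlabelled peak met the member elsewhere, so the gene itself was covered in EV alone. A KD peak lay no nearer than 8.20 kb to any of the 7 members. A member also covered 26.6% of RNA28SN2, a ribosomal RNA gene on chromosome 21, where the unlabelled list covered 99.1% and KD none. The longer ribosomal RNA gene RNA45SN2, which contains RNA28SN2, did have KD peaks, 2 in number, over 27.1% of its body. EV covered less of RNA45SN2, 10.1%, and the unlabelled list 67.02%. How reads from such copies were placed is not stated, so these values are uncertain.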

How the data were processed

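H3K9me3 peak lists of KD and EV cells and 1 list without a genotype in its name were used, 1 library per list where the labels give one. Bowtie2 (alignment) and MACS2 (peaks), without versions, and the build GRCh38 are named in the submitters' processing notes; calling options, control libraries, filters and pooling are not stated. Per peak, the deposited values are a fold enrichment (a ratio over the caller's background), a −log10 p, a −log10 q and a score, which is 10 times the −log10 q cut to a whole number. No list holds a −log10 q below 1.00. Read counts are not part of these lists, so the depth is unknown, and absence of a peak is absence from a list, not of the mark.

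Overlap, distance and covered length were computed with numpy 2.4.6 and pandas 2.3.3 (Python 3.11.15), intervals with scipy 1.17.1 and plots with matplotlib 3.10.9. On simulated peaks made from the 23245 EV peaks, all counts and covered lengths equalled those of bedtools 2.31.1, and all 1000 placed overlaps were found. Genes came from RefSeq on GRCh38.p14, with 19126 protein-coding symbols on chromosomes 1 to 22. The table has no exons, so exon and intron context is not given.

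The members, the gene lists and the alternatives were chosen with earlier results of these data known. No test was run, since each list stands for at most 1 library. Named genes were, among protein-coding genes of at least 5 kb, the 12 with most of the body under members and the 8 with most members and no KD peak. To these were added up to 4 genes of each list, of any length, the genes at the 6 strongest, widest and highest-fold members, the 6 longest runs, KCNQ1 and KCNQ1OT1, and protein-coding promoters in full under a member. FEZF2, LHX8, FOXD4L3, the promoter of FBLN7, the small RNA genes and the ranking by both lists were added after the values were seen. RNGTT and GALK2, at members ranked below the 6 strongest, were also added. The text gives a selection.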

Additional observations from a re-analysis of the deposited data

Results flagged for a closer look

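EV peaks on sequences outside chromosomes 1 to 22 also met the overlap conditions, which 1599 of 23245 (6.88%) met on chromosomes 1 to 22. The counts are a description, and no excess is read from them. On chromosomes X and Y there were 47 such peaks among 1420 EV peaks, beside 335 shared with KD and absent from the unlabelled list. On the unplaced and other sequences there were 122 among 1699, beside 325. These data were outside the comparisons of the report.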

How the results depend on the processing

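The number of members, 1599, was 489 with reciprocal overlap of at least 50%, 864 with at least 50% of the EV peak covered, 665 with no KD peak within 10 kb, 990 at a −log10 q of at least 2 in all lists, 439 with that limit in EV and the unlabelled list and all KD peaks kept, 580 with the lists limited to 12081 peaks each, 1008 with peaks within 3 kb merged and 641 without gene-free stretches. The mirror class stayed larger than the members in each, and was 6835 with reciprocal overlap. The 50% limits applied to the unlabelled list alone, with KD overlap kept at 1 bp, and the 10 kb limit to KD alone. Such limits can only take EV peaks out of the members, so the order there was set by the rule. The setting with all KD peaks kept was also unequal. With equal limits the mirror class was 3191 at a −log10 q of 2, 3662 with equal peak numbers and 4085 after merging. The share of members in gene-free stretches, 59.9%, was 65.9% with at least 50% covered, 30.1% with no KD peak within 10 kb, 68.2% at a −log10 q of 1.3, 85.3% at 2, 80.2% at 2 with all KD peaks, 65.9% with equal peak numbers and 43.5% after merging. The share in protein-coding genes, 11.9%, was 9.49%, 20.5%, 9.40%, 4.55%, 5.69%, 9.83% and 16.7% in the same order, and 29.6% without gene-free stretches. Protein-coding genes with a member, 159, were 57 with reciprocal overlap, 76 with at least 50% covered, 35 and 21 under the stricter −log10 q, 48 with equal peak numbers and 20 with at least 10% of the body covered. The ZNF share of these genes, 35.8%, was 25.7% at a −log10 q of 2, 19.05% with all KD peaks kept and 55.0% at 10% of the body. With members more than 10 kb from KD and outside gene-free stretches, a setting chosen after seeing the data, it was 30.7%. The shares found at a −log10 p of 4 to below 6 were also chosen after seeing the data. No paired analysis was possible because each group had 1 library. Depth is unknown and limits every count of absent peaks.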

Other observations

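Members also lay over non-coding genes and pseudogenes. They overlapped 95 of 17795 lncRNA genes (0.534%), 52 of 14324 pseudogenes (0.363%) and 15 of 1197 transcribed pseudogenes (1.25%). The share of protein-coding genes was 0.831%, and these counts are a description. ZNF8-DT, an lncRNA gene of 21470 bp on chromosome 19 that overlaps ZNF544 on the opposite strand, had no KD peak, against 39.2% of its body covered in EV and 30.1% in the unlabelled list. Its 3 EV peaks were all members and also lie in ZNF544. SLC6A10P, a transporter pseudogene on chromosome 16, had no KD peak, against 68.9% in EV and 46.2% in the unlabelled list. Such copies can share reads, so these values are uncertain. Outside gene-free stretches, the 641 members fell in 320 windows of 1 Mb, and the 10 fullest windows held 133 of them. The fullest, on chromosome 22 from 48000001 to 49000000, held 37 members, with 11 KD, 120 EV and 72 unlabelled peaks. The next, on chromosome 20 from 29000001 to 30000000, held 17, with 19 KD, 56 EV and 53 unlabelled peaks. It begins close to the gene-free stretch of that chromosome, which ends at 28580632. Members outside the stretches can therefore still lie beside them.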
